A study of Mus musculus with 24 samples.

Results

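Transcript levels of 38 genes of fatty acid oxidation, ketone body metabolism and the response to PPARα were followed in mouse liver. The 38 genes were chosen by name, and each was found at a single locus among the 23732 loci used. Liver RNA had been sequenced in 24 libraries, which fall into 8 groups of 3, to compare fasting and refeeding in livers with and without the transcription factor FoxO1. All mice were C57BL/6 and had gone without food for 4 h; the refed ones were then given food again for 1 h.

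In the acute model, FoxO1lox/lox mice received an adeno-associated virus by tail vein, either AAV8.TBG.Cre (Cre) or AAV8.TBG.eGFP (GFP), and livers were taken on day 21. The TBG promoter is active in hepatocytes, so FoxO1 was deleted in those cells and not in the other cells of the liver, and GFP mice carried the same floxed alleles and a virus as well. In the constitutive model, the knockout mice (KO, labelled FoxO1-/-) came from crossing the floxed line with Albumin-cre mice, whose Cre is again active in hepatocytes, and the controls (WT) are labelled FoxO1lox/lox. The comparisons made within a model share libraries. The 8 groups were thus Cre refed, GFP refed, Cre fasted, GFP fasted, KO refed, WT refed, KO fasted and WT fasted. Whether each library stands for its own animal is not stated, so the p-values below reflect the spread among these samples, part of which may be technical.

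In a fasted animal, fatty acids released from adipose tissue are taken up by hepatocytes, activated to acyl-CoA, carried into mitochondria as carnitine esters and shortened by β-oxidation. The acetyl-CoA that is formed feeds the synthesis of ketone bodies, a fuel for other organs. Very long chains are first shortened in peroxisomes, and a further part is oxidised at the far (omega) end of the chain by cytochrome P450 enzymes of the Cyp4a family. PPARα is a nuclear receptor that binds fatty acids, forms a dimer with the retinoid X receptor, and activates many of these genes from repeats of the motif AGGTCA. FoxO1 is held out of the nucleus by insulin signalling and is active in the fasted liver, where it is best known for driving glucose production.

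The bases just upstream of annotated start sites are shown for 4 genes whose promoters carry such motifs or face each other. They come from RefSeq windows on GRCm38.p6, the build also called mm10, and were available for 30 of the 38 genes. Fabp1 (chr6:71199629-71199878, plus strand), which encodes the most abundant fatty acid carrier of the hepatocyte, was the only gene of the 30 with a full direct repeat, searched on both strands as AGGNCANAGGNCA. Plin2 (chr4:86670060-86670309, minus strand), a lipid droplet coat protein, and Slc27a2 (chr2:126552774-126553023, plus strand), a fatty acid transporter and activating enzyme, each held AGGTCA on the reverse strand. Capitals mark matches to AGGTCA and to the direct repeat, here read as their reverse complement, and to TATAAA in Fabp1.
Fabp1: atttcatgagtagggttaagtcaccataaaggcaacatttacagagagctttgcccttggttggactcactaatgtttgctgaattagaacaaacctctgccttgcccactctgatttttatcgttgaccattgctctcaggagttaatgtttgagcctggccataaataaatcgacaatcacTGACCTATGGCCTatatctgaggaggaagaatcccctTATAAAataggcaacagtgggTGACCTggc
Plin2: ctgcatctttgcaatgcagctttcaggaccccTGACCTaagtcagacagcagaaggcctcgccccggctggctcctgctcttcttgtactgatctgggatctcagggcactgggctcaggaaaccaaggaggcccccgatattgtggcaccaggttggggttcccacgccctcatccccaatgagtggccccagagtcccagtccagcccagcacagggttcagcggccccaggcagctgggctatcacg
Slc27a2: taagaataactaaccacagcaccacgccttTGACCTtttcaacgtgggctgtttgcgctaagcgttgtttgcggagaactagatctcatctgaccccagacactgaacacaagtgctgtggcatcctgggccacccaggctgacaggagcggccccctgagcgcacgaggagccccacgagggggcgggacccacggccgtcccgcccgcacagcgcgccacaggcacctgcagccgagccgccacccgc
The fourth stretch lies wholly between the start sites of Hadha and Hadhb, which encode the 2 subunits of the mitochondrial trifunctional protein and are transcribed away from each other with 272 bases between them (chr5:30155003-30155252, plus strand).
Hadhb: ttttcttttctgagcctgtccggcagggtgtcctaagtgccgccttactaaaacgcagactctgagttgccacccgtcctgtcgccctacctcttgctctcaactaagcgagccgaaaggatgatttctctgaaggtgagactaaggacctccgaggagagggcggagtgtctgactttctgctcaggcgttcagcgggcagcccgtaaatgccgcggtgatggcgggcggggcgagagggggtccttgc

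The direct repeat of Fabp1 lay at bases -67 to -55 from the start site and the TATAAA at -30 to -25. Of all 32851 windows of this length, 0.381% held the direct repeat. The motif AGGTCA, which the direct repeat can contain, was present in 8 of the 30 genes (Acadm, Acadvl, Cd36, Cpt1a, Creb3l3, Fabp1, Plin2 and Slc27a2) and in 16.3% of all windows. The forkhead motif GTAAACA occurred in 0 of the 30 genes and in 3.65% of all windows, and TATAAA occurred in 1 gene and in 13.6% of windows. These windows span 300 bases around each start site, so they say nothing about sites farther away.

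The deposited values are FPKM, fragments scaled to transcript length and library size, and they were compared as log2(FPKM + 1) with limma; a gene was called where the Benjamini-Hochberg adjusted p over all genes kept was at most 0.05. The confidence bounds in the files imply 6278244 to 15697840 fragments in a library. Each acute group had 1 deeper library (Cre refed 1, GFP refed 3, Cre fasted 1 and GFP fasted 3), and the 8 other acute libraries held 6278244 to 7632492 fragments. Foxo1 itself was at 0.323 ± 0.0975 FPKM in Cre fasted livers and 4.47 ± 0.125 FPKM in GFP fasted livers (SD, n = 3 each), and was called lower in each of the 4 comparisons of deleted with control livers. A pair of libraries stood apart for low values of the 38 genes: Cre refed 1 held the lowest value of its group for 34 of them, against 40.8% of all genes, and WT refed 2 did so for 34, against 43.6% of all genes. Some of the results that rest on these 2 are also given without them. For high values, GFP fasted 2 held the highest of its group for 28 of the 38, against 31.3% of all genes.

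Hepatocyte markers (Alb, Ttr, Apoa1, Serpina1a, Fgb, Cyp2e1) summed to 50710 to 75010 FPKM in every library. Markers of adipocytes summed to at most 5.40 FPKM and those of skeletal muscle to at most 0.174 FPKM; Adipoq, Plin1, Acta1 and Myh4, which define these cells, were under 1 FPKM in every library. In bulk tissue, fewer cells of a type and less RNA per cell cannot be told apart.

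Levels spanned a wide range. Fabp1 led with a mean of 15100 FPKM over the 24 libraries (lowest 11970, highest 19420), followed by Acaa2, the thiolase that closes mitochondrial β-oxidation (675 FPKM), Slc27a2 (626 FPKM), the peroxisomal thiolase Acaa1b (588 FPKM) and Etfb, which carries electrons from the acyl-CoA dehydrogenases (406 FPKM). At the low end stood Crat (10.01 FPKM), Acot2 (5.98 FPKM) and Pdk4 (1.09 FPKM). All 38 genes passed the filter on low values, but Pdk4 and Acot2 rested on under 100 implied fragments in some library, and Pdk4 on as few as 19. Acadvl, the dehydrogenase for very long chains, differed least, 1.27-fold between its lowest and highest library, whereas Cyp4a14 differed 10.5-fold and Pdk4 13.9-fold.

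Some members share sequence with other genes, which leaves their levels uncertain. Of the 50-base stretches of their transcripts, 67.3% in Etfb and 62.4% in Hadhb also occurred in another annotated gene. The pairs Acaa1a and Acaa1b (34.0% and 35.6%) and Acot1 and Acot2 (33.2% and 27.7%) share stretches largely with each other. Cyp4a10 (30.5%) and Cyp4a31 (21.7%) share them mostly with Cyp4a32.

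**Figure D1:**
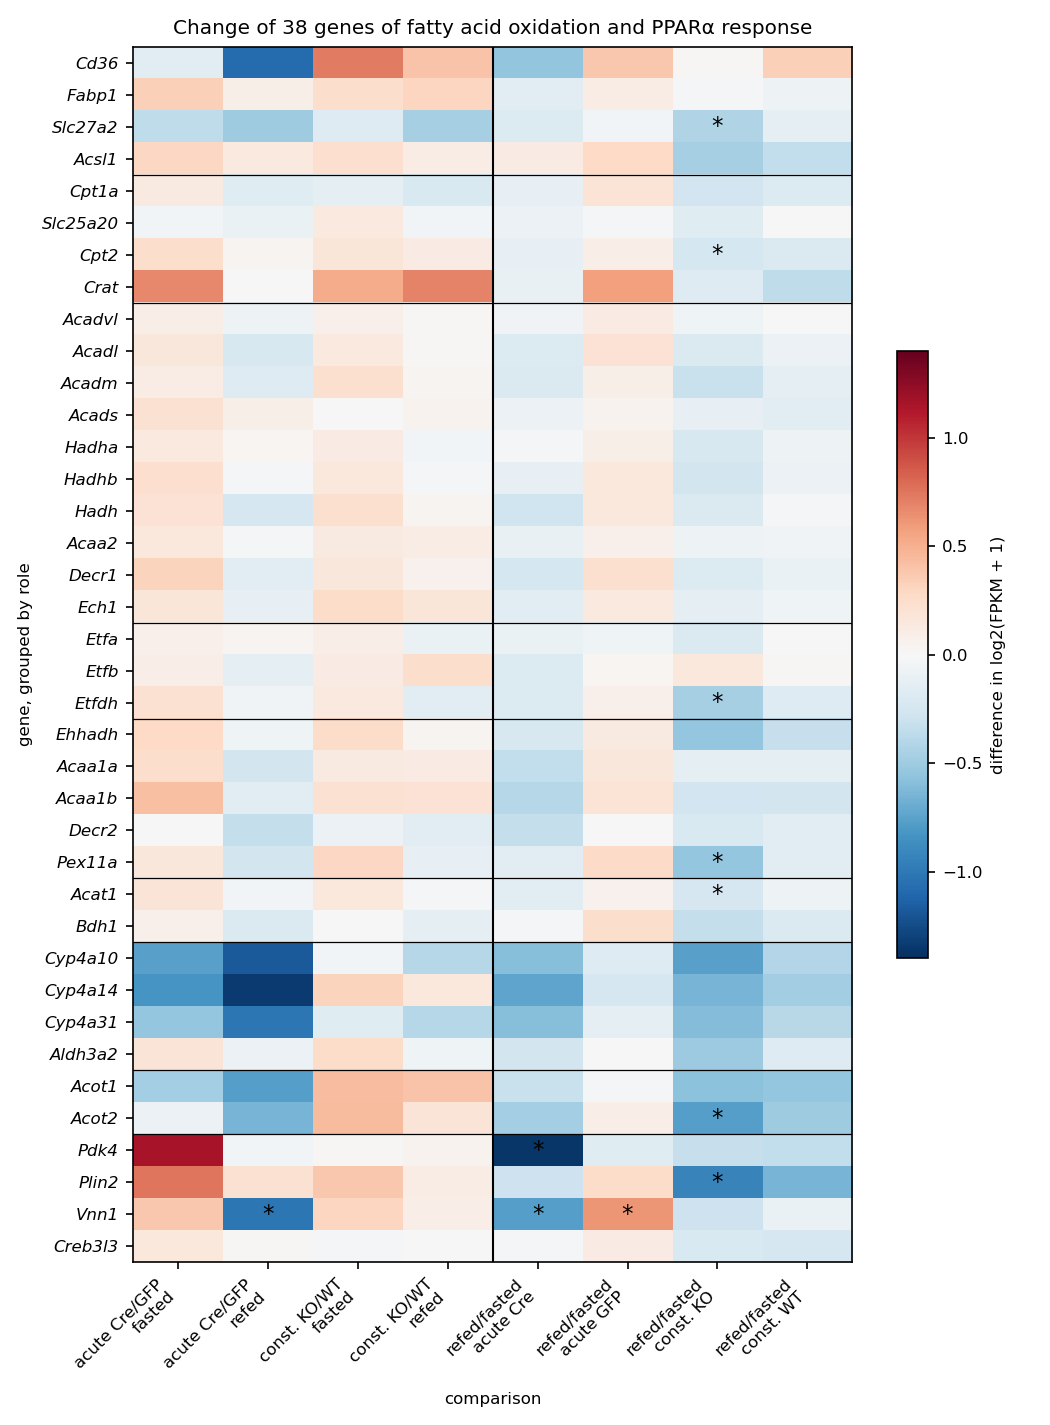
Difference in log2(FPKM + 1) of the 38 genes (rows, grouped by role with lines between roles) in 4 comparisons of FoxO1-deleted with control livers (left 4 columns) and 4 of refed with fasted livers (right 4 columns). Red is higher in deleted or refed livers, blue is lower, and a star marks a call; the 11 stars fall on Vnn1 (3), Pdk4 (1) and the 7 genes called in KO livers on refeeding.

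Deletion of FoxO1, averaged over both models and both feeding states, raised 3 of the 38 genes and lowered 3. Crat, Plin2 and Cpt2 were called higher in deleted livers, against 1.16% of all genes called higher. Slc27a2, Cyp4a10 and Cyp4a31 were called lower, against 1.98% of all genes called lower. All 6 calls held with any single library left out. Without the deeper library of each acute group, Plin2 (adjusted p = 0.110 by limma) and Cpt2 (0.0728) were no longer called, and Cpt2 was also lost without Cre refed 1 and WT refed 2 together (0.0618). Over all genes 52 and 83 were called higher in these 2 settings, against 124 with all libraries. Across all 38 genes the median log2 change was 0.05 and 26 were above 0, against a median of 0.00 over all genes.

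Refeeding for 1 h, averaged over the 4 arms (Cre, GFP, KO and WT), lowered 14 of the 38 genes and raised 0, against 10.4% of all genes called lower and 19.9% called higher. The 14 were Acaa1b, Acadm, Acot1, Acot2, Aldh3a2, Cpt2, Cyp4a10, Cyp4a31, Decr2, Ehhadh, Etfdh, Pdk4, Plin2 and Slc27a2, and 20 of the 38 had an unadjusted p under 0.05, against 42.2% of all genes. Calls on 10 of them held with any single library left out; Acaa1b, Acadm, Aldh3a2 and Ehhadh lost theirs without any 1 of 12 to 15 of the libraries, Cre refed 1 among them in each case. The count was 10 without Cre refed 1 and WT refed 2 together and 9 without the deeper acute libraries. Over all genes 939 and 870 were called lower in these 2 settings, against 1108 with all libraries. With median-of-ratios scaling the count among the 38 was 24, and the calls over all genes moved to 1538 higher and 1661 lower, against 2128 higher and 1108 lower as deposited. Across the 38 genes, 35 lay below 0 with a median of -0.10, against a median of 0.04 over all genes. The arms differed: 8 of the 38 lay below 0 in all 4 arms, against 13.6% of all genes. In GFP livers Acaa1b, Acadm, Acot2, Aldh3a2, Cpt2, Ehhadh, Etfdh and Plin2 of the 14 lay above 0 (0.01 to 0.25), with none of these called.

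Markers of other cell types moved with refeeding. Averaged over the 4 arms, all 6 endothelial markers lay above 0 with 4 called (median 0.27), all 6 Kupffer cell markers with 2 called (median 0.54) and all 6 stellate cell markers with 4 called (median 0.32), while 0 of 6 hepatocyte markers were called (median -0.03). Of all genes, 60.3% lay above 0 and 19.9% were called higher in that effect. By arm the lists differed: in KO livers 5 of 6 endothelial markers lay below 0 (median -0.22), summing to 35.9 to 39.4 FPKM refed and 38.1 to 45.6 FPKM fasted, and the stellate median was 0.04. In Cre livers the endothelial markers summed to 38.2 to 58.6 FPKM refed and 16.9 to 33.5 FPKM fasted, and in WT livers to 28.2 to 33.9 FPKM refed and 27.6 to 31.6 FPKM fasted. None of these 3 lists had 0 in a whole group for any marker. Their part in the lower levels of the 14 genes was not tested. In the averaged deletion effect, 0 of these 18 markers and 2 of 6 hepatocyte markers were called, where 1.16% of all genes were called higher and 1.98% lower.

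**Figure D2:**
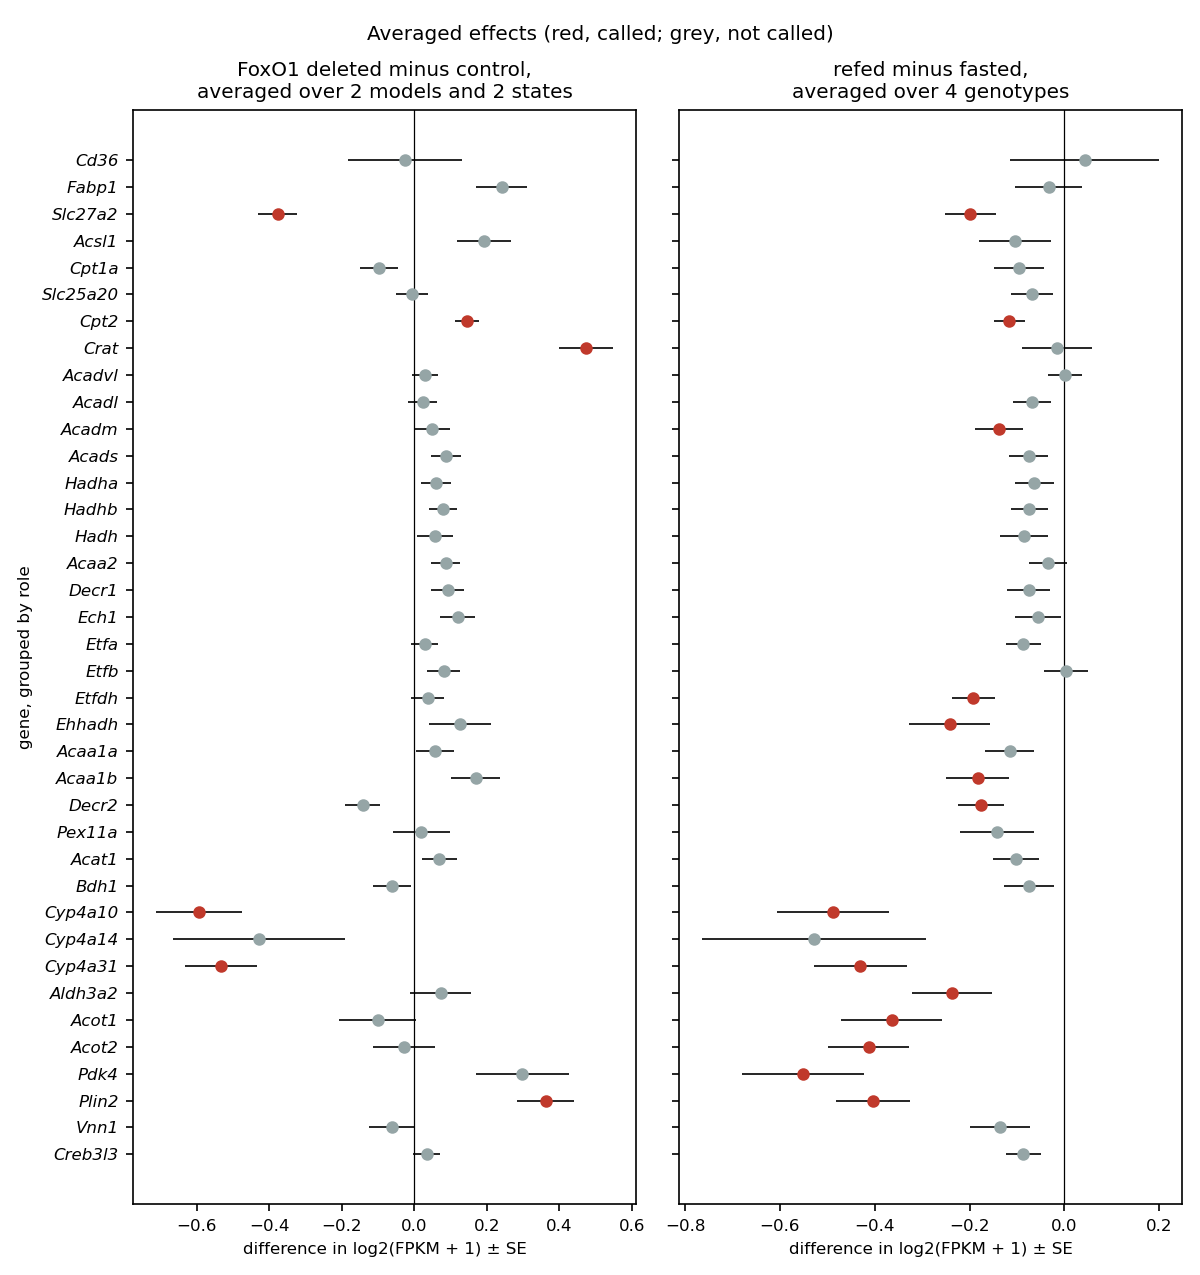
Difference in log2(FPKM + 1) ± SE of each gene between FoxO1-deleted and control livers, averaged over 2 models and 2 states (left), and between refed and fasted livers, averaged over the 4 arms Cre, GFP, KO and WT (right, where the panel title calls them genotypes). Red points are called by limma; on the left 3 lie above 0 and 3 below, and on the right all 14 lie below 0.

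Of the genes of fatty acid uptake and activation, Slc27a2 (locus chr2:126553024-126588243) was lower with deletion and lower after refeeding in the averaged effects. Its level was 461, 484 and 565 FPKM in Cre refed livers and 794, 671 and 674 FPKM in GFP refed livers. It was 604, 624 and 496 FPKM in Cre fasted and 698, 790 and 708 FPKM in GFP fasted livers. In the constitutive model it was 453, 424 and 546 FPKM in KO refed and 648, 629 and 682 FPKM in WT refed livers, and 622, 602 and 679 FPKM in KO fasted and 680, 763 and 718 FPKM in WT fasted livers. In all 4 comparisons every deleted library lay below every control library. The averaged log2 change with deletion was -0.38 ± 0.054 (SE; adjusted p = 0.000337 by limma), with single comparisons from -0.50 to -0.18 and none called by itself. Refeeding lowered it by limma in KO livers (-0.42 ± 0.097, adjusted p = 0.0308), a call lost without any of 5 KO libraries, with the compared groups alone (0.0755) and without the filter. Its averaged refeeding call (-0.20 ± 0.054, adjusted p = 0.00879 by limma) was lost without the deeper acute libraries (0.0586).

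Fabp1 (locus chr6:71199888-71205023) was at 14660 ± 2805 FPKM in Cre refed and 13790 ± 1448 FPKM in GFP refed livers, and at 16170 ± 2059 FPKM in Cre fasted and 12790 ± 774 FPKM in GFP fasted livers (SD, n = 3 each). It was at 17260 ± 1875 FPKM in KO refed and 13980 ± 1626 FPKM in WT refed livers, and at 17470 ± 2246 FPKM in KO fasted and 14670 ± 1541 FPKM in WT fasted livers. Its change with deletion was above 0 in all 4 comparisons, from 0.08 to 0.33, and none was called; the acute refed one was -0.07 without Cre refed 3. Acsl1, which links long-chain fatty acids to coenzyme A, was likewise above 0 in all 4 comparisons (0.11 to 0.29), with none called, and at -0.01 in constitutive refed livers without KO refed 3. It was at 272, 274 and 252 FPKM in GFP refed and 223, 231 and 204 FPKM in GFP fasted livers, which did not overlap (0.28, adjusted p = 0.304 by limma). Cd36, a fatty acid receptor of the cell surface, was at 7.89, 14.8 and 9.22 FPKM in Cre refed and 19.1, 29.3 and 21.3 FPKM in GFP refed livers, which did not overlap. That difference was -1.08 ± 0.28 with an adjusted p of 0.213 by limma, and in the constitutive model the difference was 0.40 refed and 0.72 fasted, neither called. Constitutive refed livers ran the other way without overlap, with 22.6, 16.8 and 19.8 FPKM in KO and 15.3, 13.03 and 15.7 FPKM in WT.

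**Figure D3:**
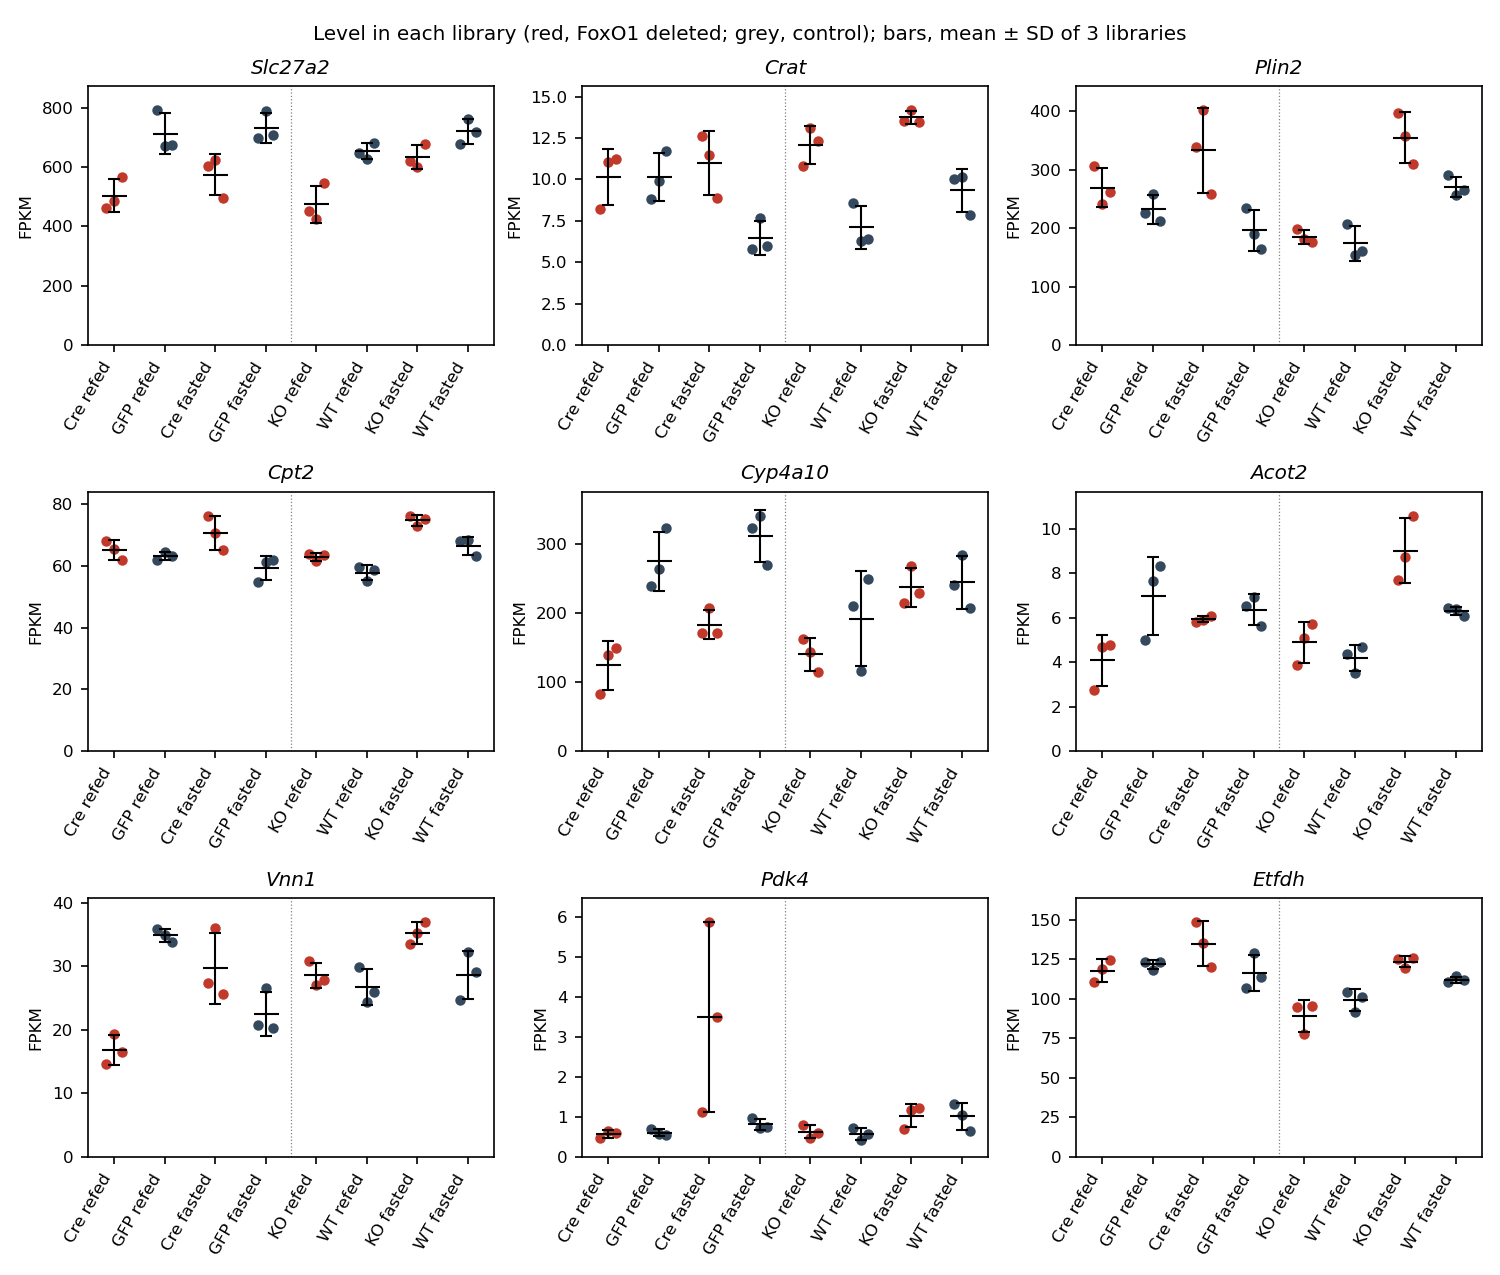
Level in FPKM of 9 genes in each of the 24 libraries by group, with FoxO1-deleted livers in red and controls in grey, the acute model left of the dotted line and the constitutive model right of it. Bars give the mean ± SD of 3 libraries; Slc27a2 is lower in red than in grey in all 4 pairs, and Crat is higher in red in all pairs but the acute refed one.

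In the carnitine shuttle, Crat and Cpt2 were higher in deleted livers. Crat (locus chr2:30400476-30415748), which moves acetyl groups between coenzyme A and carnitine, was at 12.6, 11.5 and 8.87 FPKM in Cre fasted and 5.81, 7.67 and 5.96 FPKM in GFP fasted livers. Among KO and WT mice it was at 10.8, 13.1 and 12.3 FPKM in KO refed and 8.59, 6.28 and 6.42 FPKM in WT refed livers, and at 13.5, 14.2 and 13.5 FPKM in KO fasted and 10.1, 10.1 and 7.84 FPKM in WT fasted livers. These 3 pairs of groups did not overlap, but Cre refed (8.20, 11.1 and 11.2 FPKM) and GFP refed livers (8.81, 9.91 and 11.7 FPKM) did. The averaged log2 change was 0.47 ± 0.074 (adjusted p = 0.000795 by limma), and by comparison it was 0.68 in acute fasted, 0.00 in acute refed, 0.52 in constitutive fasted and 0.70 in constitutive refed livers. The difference between the models in refed livers was -0.70 ± 0.21 (adjusted p = 0.325 by limma).

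Cpt2 (locus chr4:107903982-107923589), which returns acyl groups from carnitine to coenzyme A inside the mitochondrion, changed by less. It was at 76.2, 70.6 and 65.2 FPKM in Cre fasted and 54.7, 61.2 and 61.8 FPKM in GFP fasted livers, and at 76.3, 72.8 and 75.3 FPKM in KO fasted and 68.0, 68.4 and 63.1 FPKM in WT fasted livers. Refed, it was at 68.2, 65.4 and 61.9 FPKM in Cre and 62.0, 64.5 and 63.4 FPKM in GFP livers, and at 63.7, 61.5 and 63.4 FPKM in KO and 59.6, 55.0 and 58.8 FPKM in WT livers. Deleted and control livers overlapped in the acute refed pair and in no other pair. The averaged change was 0.14 ± 0.033 with deletion (adjusted p = 0.0191 by limma) and -0.12 ± 0.033 with refeeding (0.0121). Cpt1a, the entry step of the shuttle, and the carrier Slc25a20 were called in no comparison, with averaged deletion changes of -0.10 and -0.01.

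The 10 enzymes of mitochondrial β-oxidation differed by small amounts. With deletion, all 10 were above 0 in acute fasted (median 0.17) and in constitutive fasted livers (median 0.14). Median-of-ratios scaling left 9 of 10 above 0 in constitutive fasted livers. In refed livers 2 of 10 were above 0 in the acute model (median -0.10) and 8 of 10 in the constitutive model (median 0.04). Without Cre refed 1, Acaa2 (0.06) and Hadhb (0.04) turned to above 0 in acute refed livers. Without WT refed 2, Acadl (-0.07), Acadvl (-0.04) and Decr1 (-0.02) turned to below 0 in constitutive refed livers. With refeeding, all 10 were below 0 in Cre and in KO livers, 9 of 10 in WT livers and 0 of 10 in GFP livers, where median-of-ratios scaling left 4 of 10 below 0. No single comparison called any of them. Acadm, the medium-chain dehydrogenase, was called lower in the averaged refeeding effect (-0.14 ± 0.050, adjusted p = 0.0425 by limma), a call lost without any 1 of 14 libraries. Acadm was at 163, 196 and 197 FPKM in Cre refed and 212, 199 and 216 FPKM in GFP refed livers, and at 194, 211 and 235 FPKM in Cre fasted and 199.7, 221 and 173 FPKM in GFP fasted livers. Among KO and WT mice it was at 172, 161 and 160.3 FPKM in KO refed and 169.5, 153 and 159 FPKM in WT refed livers, and at 212, 188 and 213 FPKM in KO fasted and 158, 193 and 175 FPKM in WT fasted livers. Every Cre refed library lay below every GFP refed one for Acadm, a difference that was not called. Acads, the short-chain dehydrogenase, was above 0 with deletion in 3 comparisons (0.05 to 0.21), and at 0.01 in constitutive fasted livers, where median-of-ratios scaling gave -0.02. Decr1, a mitochondrial reductase for unsaturated chains, was at 83.3, 87.4 and 88.4 FPKM in GFP refed and 73.7, 80.2 and 67.4 FPKM in GFP fasted livers, without overlap and not called. Hadha and Hadhb, which share the stretch printed above, had averaged deletion changes of 0.06 and 0.08 and averaged refeeding changes of -0.06 and -0.07.

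Among the genes that pass electrons from the acyl-CoA dehydrogenases to the respiratory chain, Etfdh (locus chr3:79603788-79628767), the membrane oxidoreductase at the end of that path, was called lower with refeeding in KO livers and in the averaged effect. It was at 94.6, 77.7 and 95.6 FPKM in KO refed and 126, 119 and 126 FPKM in KO fasted livers, and at 104, 91.5 and 102 FPKM in WT refed and 110, 114 and 112 FPKM in WT fasted livers. The change in KO livers was -0.47 ± 0.087 (adjusted p = 0.0170 by limma), a call lost without KO fasted 1, KO fasted 2 or KO refed 2 (up to 0.0692). In the acute model Etfdh changed by -0.19 in Cre and 0.07 in GFP livers, neither called. Its averaged refeeding change was -0.19 ± 0.045 (adjusted p = 0.00328 by limma). Etfa and Etfb, the subunits of the soluble carrier, were not called, and Etfb differed in sign from Etfdh in KO livers (0.15).

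Of the 5 peroxisomal genes, Acaa1b, Ehhadh and Decr2 were called lower in the averaged refeeding effect and Pex11a in KO livers alone of the single comparisons. Decr2, a reductase for unsaturated chains, fell by 0.18 ± 0.048 (log2; adjusted p = 0.00947 by limma), a call lost without the deeper acute libraries (0.0560), and was below 0 with deletion in 3 comparisons (-0.34 to -0.08). In acute fasted livers its change was -0.01, and 0.00 with median-of-ratios scaling. Pex11a, which takes part in the division of peroxisomes, was at 35.1, 32.2 and 50.05 FPKM in KO refed and 54.5, 52.8 and 62.7 FPKM in KO fasted livers (-0.55 ± 0.14, adjusted p = 0.0438 by limma), a call lost without any of 10 libraries. Ehhadh, the bifunctional enzyme of the peroxisome, changed by -0.24 ± 0.085 (adjusted p = 0.0370 by limma) and Acaa1b by -0.18 ± 0.067 (0.0430) with refeeding on average. None of the 5 was called in a deletion comparison. Ehhadh was at 87.9, 129 and 118 FPKM in Cre refed and 114, 121 and 111 FPKM in GFP refed livers, and at 115, 144 and 129.6 FPKM in Cre fasted and 128, 99.4 and 93.6 FPKM in GFP fasted livers. Among KO and WT mice it was at 86.6, 68.3 and 82.9 FPKM in KO refed and 86.7, 62.3 and 83.96 FPKM in WT refed livers, and at 125, 106 and 116 FPKM in KO fasted and 74.4, 117 and 104 FPKM in WT fasted livers. KO refed livers lay below KO fasted livers. Acaa1b was at 391, 559 and 566 FPKM in Cre refed and 651, 497 and 538 FPKM in GFP refed livers, and at 631, 682 and 653 FPKM in Cre fasted and 504, 528 and 437 FPKM in GFP fasted livers. Among KO and WT mice it was at 641, 577 and 591 FPKM in KO refed and 562, 453 and 565 FPKM in WT refed livers, and at 765, 744 and 678 FPKM in KO fasted and 558, 701 and 630.1 FPKM in WT fasted livers. Cre fasted livers lay above GFP fasted livers without overlap. Decr2 was at 79.1, 89.1 and 103 FPKM in Cre refed and 128, 104 and 110.4 FPKM in GFP refed livers, and at 116, 119 and 106 FPKM in Cre fasted and 114, 116 and 112 FPKM in GFP fasted livers. Among KO and WT mice it was at 93.2, 79.9 and 95.4 FPKM in KO refed and 104, 93.05 and 99.5 FPKM in WT refed livers, and at 97.5, 105 and 109 FPKM in KO fasted and 103, 112 and 114 FPKM in WT fasted livers. Here too Cre refed livers lay below GFP refed livers without overlap and without a call.

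Of the 2 genes of ketone body metabolism, Acat1, the thiolase that joins 2 molecules of acetyl-CoA, was called lower in KO refed livers (110, 105 and 109 FPKM) than in KO fasted livers (130, 126 and 125 FPKM). The change was -0.23 ± 0.061 with an adjusted p of 0.0495 by limma, and the call was lost without any of the 12 libraries of the model (up to 0.166). Bdh1, which reduces acetoacetate to hydroxybutyrate, was called in no comparison.

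Cyp4a10, Cyp4a31 and Cyp4a14, which start the breakdown of fatty acids from the far end, had the 3 lowest averaged deletion changes of the 38 genes, and the first pair was called. Among genes of the family outside the 38, Cyp4a32 was called lower (-0.55 ± 0.091, adjusted p = 0.00141 by limma), whereas Cyp4a12a (1.37 ± 0.36, adjusted p = 0.0427) and Cyp4a12b (1.45 ± 0.37, adjusted p = 0.0360 by limma) were called higher in the same averaged effect. Cyp4a10 (locus chr4:115518287-115533649) was at 83.2, 139 and 150 FPKM in Cre refed and 239, 265 and 323 FPKM in GFP refed livers, and at 172, 207 and 171 FPKM in Cre fasted and 324, 342 and 270 FPKM in GFP fasted livers. Its level was 163, 143 and 114 FPKM in KO refed and 211, 116 and 250 FPKM in WT refed livers, and 214, 268 and 229 FPKM in KO fasted and 240, 285 and 208 FPKM in WT fasted livers. The acute groups did not overlap and the constitutive groups did. The averaged deletion change was -0.59 ± 0.12 (adjusted p = 0.00763 by limma), made up of -1.18 and -0.76 in acute refed and fasted livers and -0.39 and -0.04 in constitutive ones. Acute minus constitutive, the change was -0.78 ± 0.34 refed (adjusted p = 0.435) and -0.72 ± 0.34 fasted (adjusted p = 0.618 by limma), so the models were not shown to differ.

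Cyp4a31 (locus chr4:115563649-115579015), its neighbour, followed the same order. It was at 5.79, 9.497 and 10.3 FPKM in Cre refed and 14.1, 20.2 and 19.9 FPKM in GFP refed livers, and at 12.7, 15.6 and 11.4 FPKM in Cre fasted and 22.2, 19.8 and 17.1 FPKM in GFP fasted livers. In KO refed livers it was at 10.3, 8.79 and 8.62 FPKM and in WT refed livers at 13.2, 9.33 and 15.4 FPKM, which overlapped. The averaged deletion change was -0.53 ± 0.099 (adjusted p = 0.00412 by limma). With refeeding, Cyp4a10 changed by -0.49 ± 0.12 (adjusted p = 0.00449) and Cyp4a31 by -0.43 ± 0.099 (0.00302, both by limma) on average.

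Cyp4a14 varied more between libraries than Cyp4a10 and Cyp4a31. It was at 47.8, 307 and 187 FPKM in Cre refed and 327, 274 and 502 FPKM in GFP refed livers, and at 177, 258 and 286 FPKM in Cre fasted and 447, 468 and 352 FPKM in GFP fasted livers. Cre refed 1 held the lowest of its values. The changes of -1.34 ± 0.52 refed and -0.83 ± 0.52 fasted were not called (adjusted p = 0.464 and 0.568 by limma), and in the constitutive model the changes were 0.14 and 0.31. Without WT refed 2 the constitutive refed change turned to -0.29. KO livers had 286, 257 and 178 FPKM of Cyp4a14 refed and 294, 397 and 434 FPKM fasted, without overlap and without a call. Aldh3a2, which oxidises the fatty aldehydes of this path, was called lower in the averaged refeeding effect (-0.24 ± 0.084, adjusted p = 0.0385 by limma), a call lost without any 1 of 13 libraries. Aldh3a2 was at 96.5, 135 and 115 FPKM in Cre refed and 140.1, 94.7 and 136 FPKM in GFP refed livers, and at 142, 139 and 131 FPKM in Cre fasted and 117, 121 and 125 FPKM in GFP fasted livers. Among KO and WT mice it was at 93.6, 75.1 and 103 FPKM in KO refed and 111, 80.2 and 93.2 FPKM in WT refed livers, and at 128, 118 and 139.9 FPKM in KO fasted and 83.9, 129 and 113 FPKM in WT fasted livers. KO refed livers lay below KO fasted livers without overlap.

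The acyl-CoA thioesterases Acot1 and Acot2, which release free fatty acids from coenzyme A in cytosol and mitochondria, were both lower after refeeding. Acot2 (locus chr12:83987861-83993875) was at 3.89, 5.07 and 5.71 FPKM in KO refed and 7.72, 8.75 and 10.6 FPKM in KO fasted livers, a 1.85-fold fall (-0.77 ± 0.13, adjusted p = 0.0134 by limma) that held with any library left out. In WT livers it was at 4.37, 3.54 and 4.67 FPKM refed and 6.43, 6.41 and 6.09 FPKM fasted, and in Cre livers at 2.74, 4.71 and 4.79 FPKM refed and 5.83, 5.90 and 6.10 FPKM fasted, without overlap in either case. In GFP livers it was at 4.98, 7.65 and 8.34 FPKM refed and 6.55, 6.95 and 5.62 FPKM fasted, and those groups overlapped. Acot1 was at 14.98, 10.1 and 15.9 FPKM in WT refed and 19.8, 21.9 and 18.5 FPKM in WT fasted livers, which did not overlap. The averaged refeeding change was -0.41 ± 0.085 for Acot2 (adjusted p = 0.00131) and -0.36 ± 0.11 for Acot1 (0.0138, both by limma).

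With deletion, both thioesterases had opposite signs in the 2 models. Acot1 was at 9.52, 15.3 and 15.01 FPKM in Cre refed and 18.3, 24.4 and 26.6 FPKM in GFP refed livers, and at 13.9, 21.0 and 19.98 FPKM in KO refed and 14.98, 10.1 and 15.9 FPKM in WT refed livers. The acute minus constitutive difference was -1.17 ± 0.30 refed (adjusted p = 0.293) and -0.91 ± 0.30 fasted (0.380, both by limma), so neither passed. For Acot2 the same differences were -0.83 ± 0.24 and -0.53 ± 0.24 (adjusted p = 0.319 and 0.614 by limma).

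Plin2 (locus chr4:86656565-86670059) was called higher with deletion in the averaged effect and lower with refeeding in KO livers. It was at 338, 403 and 258 FPKM in Cre fasted and 234, 190 and 164 FPKM in GFP fasted livers, and at 396, 358 and 310 FPKM in KO fasted and 290, 258 and 265 FPKM in WT fasted livers. Neither fasted pair overlapped, and neither was called (adjusted p = 0.112 acute and 0.500 constitutive by limma). Refed, it was at 306, 240 and 261 FPKM in Cre and 226, 259 and 212 FPKM in GFP livers, and at 199, 181 and 176 FPKM in KO and 207, 154 and 160 FPKM in WT livers, and both pairs overlapped. The averaged deletion change was 0.36 ± 0.078 (adjusted p = 0.0130 by limma), a call lost without the deeper acute libraries (0.110). KO refed livers were 1.92-fold lower than KO fasted livers (-0.93 ± 0.12, adjusted p = 0.00448 by limma), a call that held with any library left out; in WT livers the change was -0.65 ± 0.12, just short of a call (0.0506). In GFP livers the change was 0.25, and the difference between the GFP and WT refeeding effects was 0.90 ± 0.22 (adjusted p = 0.243 by limma).

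Vnn1 (locus chr10:23894688-23905343), a pantetheinase that recycles part of coenzyme A, was the one gene of the 38 called in a single deletion comparison. It was at 14.7, 19.4 and 16.5 FPKM in Cre refed and 35.9, 35.0 and 33.8 FPKM in GFP refed livers, a 2.07-fold fall without overlap. Of all genes, 0.0574% were called lower in that comparison, and 11 of the 38 had an unadjusted p under 0.05, against 9.09% of all genes. Fasted, it was at 27.4, 36.0 and 25.7 FPKM in Cre and 20.7, 26.6 and 20.3 FPKM in GFP livers, which overlapped. In the constitutive model it was at 30.8, 27.1 and 27.9 FPKM in KO refed and 29.9, 24.4 and 26.0 FPKM in WT refed livers, and at 33.6, 35.3 and 37.0 FPKM in KO fasted and 24.7, 32.3 and 29.1 FPKM in WT fasted livers.

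The deletion change of Vnn1 in acute refed livers was -1.02 ± 0.14 (adjusted p = 0.0219 by limma). Refeeding lowered Vnn1 in Cre livers (-0.78 ± 0.14, adjusted p = 0.0180) and raised it in GFP livers (0.62 ± 0.14, adjusted p = 0.0281 by limma); these comparisons share libraries. Refed minus fasted, the deletion effect was -1.39 ± 0.20 (adjusted p = 0.0585 by limma), just short of a call. The deletion call was lost without Cre refed 1, Cre refed 3, GFP refed 2 or GFP refed 3 (adjusted p up to 0.134) and over the 8 shallower libraries (0.230). The Cre refeeding call was lost without Cre fasted 2 or Cre refed 1 (up to 0.0666), and the GFP one without any of 5 GFP libraries (up to 0.0922) and with median-of-ratios scaling.

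Pdk4, a kinase that shuts off pyruvate dehydrogenase and so spares glucose, was the other gene called within the acute model. It was at 0.462, 0.637 and 0.607 FPKM in Cre refed livers and 1.13, 5.88 and 3.503 FPKM in Cre fasted livers, a 6.16-fold fall without overlap. It was at 0.696, 0.578 and 0.537 FPKM in GFP refed and 0.963, 0.713 and 0.757 FPKM in GFP fasted livers. The change in Cre livers was -1.37 ± 0.31 (adjusted p = 0.0320 by limma), a call lost without any of the 3 Cre refed libraries (up to 0.0926). Pdk4 reached 1 FPKM in the acute model in the 3 Cre fasted libraries only, so it passed the filter through the group where it is high and could not be tested with one of those left out. The averaged refeeding change was -0.55 ± 0.13 (adjusted p = 0.00308 by limma), in a fit that Pdk4 also entered through fasted libraries alone. Creb3l3, a transcription factor of the fasting liver that works with PPARα, stayed within 120 to 166 FPKM over the 24 libraries and was called in no comparison.

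By feeding state, the deletion effect of most of the 38 genes was above 0 when fasted. In acute fasted livers 29 of the 38 genes were above 0 (median 0.16) against 48.2% of all genes, and in constitutive fasted livers 32 were (median 0.14) against 55.6% of all genes. Neither comparison called any of the 38, where 0.297% and 0.0964% of all genes were called, and 14 and 10 of the 38 had an unadjusted p under 0.05, against 12.3% and 6.56% of all genes. Of the 14 in acute fasted livers, 10 were higher and 4 lower in Cre, and all 10 in constitutive fasted livers were higher in KO. The 9 genes below 0 in acute fasted livers included 3 of 4 of omega-oxidation (median of the 4, -0.655) and 2 of 2 thioesterases (median -0.279). In acute fasted livers 15 of the 38 lay higher in Cre without overlap, against 9.15% of all genes, and 5 lower, against 9.55%. In constitutive fasted livers 19 lay higher in KO without overlap, against 7.52% of all genes, and 1 lower (Slc27a2), against 4.64%. In the same constitutive fasted comparison all 6 endothelial (median 0.36), all 6 Kupffer (0.37) and all 6 stellate markers (0.25) also lay above 0, with 0 called, while in acute fasted livers all 6 endothelial markers lay below 0; their part in the result was not tested.

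In refed livers the medians of the 2 models had opposite signs. In acute refed livers 30 of the 38 were below 0 (median -0.12), 0 lay higher in Cre without overlap, against 6.17% of all genes, and 11 lay lower, against 6.51%. Without Cre refed 1, 22 were below 0 (median -0.04), and over the 8 shallower libraries 20 of 37. In constitutive refed livers 24 were above 0 (median 0.04), against 47.7% of all genes. In that comparison 0 were called, against 0.0289% of all genes, with 6 of the 38 at an unadjusted p under 0.05 (10.8% of all genes). There 7 lay higher in KO without overlap, against 6.8% of all genes, and 1 lower, against 8.5%. Without WT refed 2, 17 were above 0 (median -0.03). The direction of the refed medians therefore turned with that library in the constitutive model.

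The deletion effect refed minus the deletion effect fasted was below 0 for all 38 genes in the acute model, against 47.5% of all genes, with a median of -0.29. None was called, against 0.0287% of all genes, and 12 had an unadjusted p under 0.05, against 6.60% of all genes. With single libraries left out 35 to 38 were below 0, the lowest count without Cre refed 1, and over the 8 shallower libraries 30 of 37 did (median -0.13). In the constitutive model 32 of 38 were below 0, against 56.4% of all genes (median -0.14), with 0 called, 0 of all genes called and 1 at an unadjusted p under 0.05, against 4.41% of all genes. The endothelial markers had a median deletion effect of -0.14 in acute refed and -0.54 in acute fasted livers, the opposite order of the 38 genes, and the hepatocyte markers had -0.19 refed and -0.06 fasted. Refed minus fasted, 3 of 6 Kupffer (median 0.13) and 6 of 6 stellate markers (0.21) lay above 0 in the acute model. In the constitutive model the same difference was below 0, as for the 32 genes, in 6 of 6 endothelial (median -0.25), 6 of 6 Kupffer (-0.29) and 5 of 6 stellate markers (-0.14). Their part in either pattern was not tested.

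**Figure D4:**
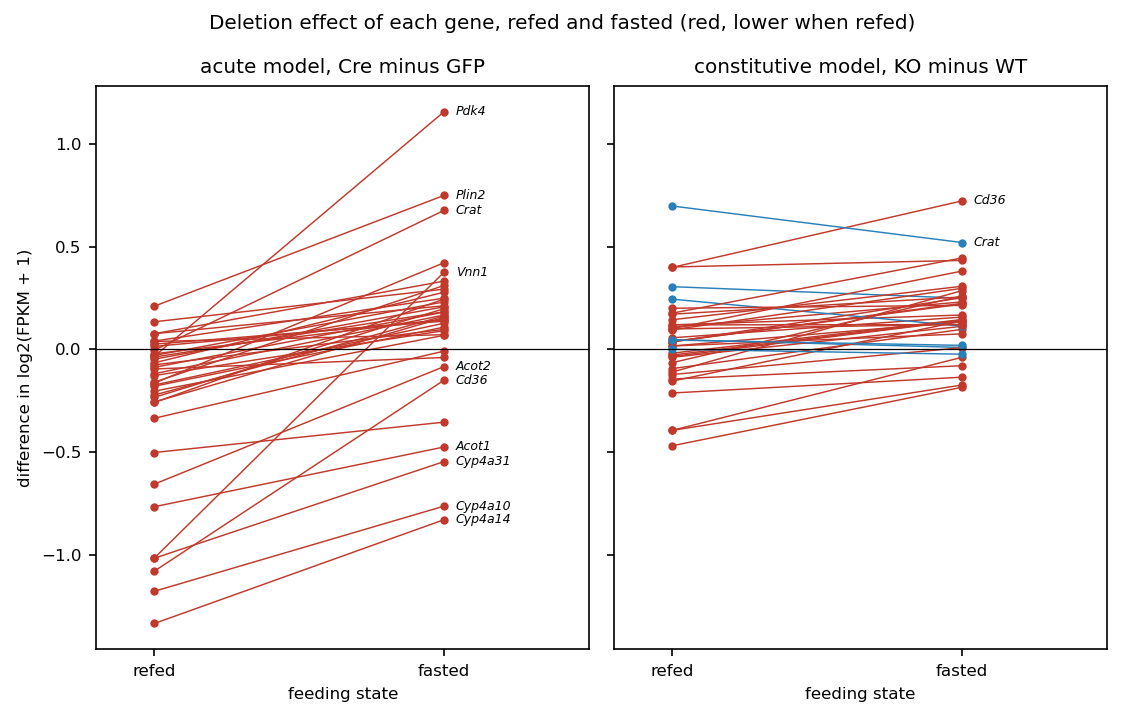
Deletion effect of each of the 38 genes as a difference in log2(FPKM + 1), in refed (left end) and fasted livers (right end), for the acute model (left) and the constitutive model (right). Red lines are genes whose effect was lower when refed: all 38 in the acute model and 32 in the constitutive model.

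With refeeding, 36 of the 38 genes were below 0 in KO livers (median -0.25), against 53.7% of all genes (median -0.02). There 7 were called lower (Acat1, Acot2, Cpt2, Etfdh, Pex11a, Plin2 and Slc27a2) and 0 higher, against 3.68% and 2% of all genes, and 28 lay lower without overlap, against 17.2%. Calls on Acot2 and Plin2 held with any library left out, and without KO fasted 1, KO fasted 2 or KO refed 2 these 2 were the calls that were left. Over all genes the calls lower then fell from 382 to 44, 60 and 56 in turn. In WT livers 34 of 38 were below 0 (median -0.15), against 47.5% of all genes (median 0.01). There 0 were called, against 0.318% of all genes, with 11 at an unadjusted p under 0.05 (15.6% of all genes). Without overlap 6 lay lower, against 9.51%. Without WT refed 2, 30 were below 0 (median -0.08) and 3 had an unadjusted p under 0.05. In Cre livers 37 of 38 were below 0 (median -0.19), against 35.5% of all genes (median 0.08). There 2 were called lower, against 1.15%, and 15 lay lower without overlap, against 7.39%. The called genes were Vnn1 and Pdk4, and Pdk4 passed the filter through the Cre fasted libraries only. Without Cre refed 1, 33 were below 0 (median -0.11) and 4 rather than 11 had an unadjusted p under 0.05 (24.04% of all genes with all libraries), and with median-of-ratios scaling the median was -0.30. In GFP livers 29 of 38 were above 0 (median 0.10), against 64.7% of all genes (median 0.08). There 1 was called higher, against 4.81%, and 7 lay higher without overlap, against 19.9%. With median-of-ratios scaling 20 of 38 were above 0 in GFP livers (median 0.01). As deposited, 34 were above 0 in GFP livers without GFP fasted 2 (median 0.145) and 23 without GFP refed 3 (median 0.05).

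No difference between the models was called for any of the 38 genes. The deletion effect, acute minus constitutive, had a median of 0.03 fasted and -0.13 refed over the 38 genes, and limma called 0 of them, against 0 of all genes in either state; 4 and 11 of the 38 had an unadjusted p under 0.05, against 7.85% and 10.9% of all genes. The refeeding effect in controls, GFP minus WT, was above 0 for 36 of 38, against 64.0% of all genes, with a median of 0.24, 0 called by limma, against 0.00936% of all genes, and 13 at an unadjusted p under 0.05 (9.41% of all genes). Without WT refed 2, 33 were above 0 with a median of 0.17. The refeeding effect in deleted livers, Cre minus KO, had a median of 0.08, close to the median of 0.11 over all genes, with 0 called by limma, against 0.253%, and 6 at an unadjusted p under 0.05 (20.2% of all genes); with 25 of 38 above 0 as deposited and 13 of 38 with median-of-ratios scaling (median -0.07), its direction turned with the scaling. Vnn1 came nearest in the refed deletion effect (-1.11 ± 0.18, adjusted p = 0.0684 by limma).

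A list of 66 other genes of these pathways gave 61 that could be tested. In acute fasted livers 1 of the 61 was called with deletion, against 0.297% of all genes: Fgf21, a hormone that the fasting liver secretes under the control of PPARα. It was at 3.87, 3.35 and 2.48 FPKM in Cre and 0.453, 0.408 and 0.128 FPKM in GFP livers (1.67 ± 0.19, adjusted p = 0.00384 by limma). All GFP fasted values lay under the filter's 1 FPKM and all Cre fasted values above it. Fgf21 could thus pass the filter through the group where it is high. The other 3 deletion comparisons called 0 of the 61, and Fgf21 changed there by -0.04 in acute refed, 0.54 in constitutive fasted and 0.17 in constitutive refed livers. In the averaged deletion effect 3 of the 61 were called higher, against 1.16% of all genes: Cyp4a12a, Cyp4a12b and Fgf21 (0.58 ± 0.12, adjusted p = 0.00763 by limma). Another 7 were called lower, against 1.98%, among them Ppargc1a, a coactivator of PPARα (-0.39 ± 0.077, adjusted p = 0.00677 by limma). Ppargc1a was at 1.14, 0.989 and 1.05 FPKM in Cre fasted and 2.09, 1.88 and 1.87 FPKM in GFP fasted livers, and changed by -0.52 in acute fasted, -0.68 in acute refed, -0.07 in constitutive fasted and -0.30 in constitutive refed livers, none called. In the averaged refeeding effect 7 of the 61 were called higher and 18 lower, against 19.9% and 10.4% of all genes. The median was -0.09 over the 61 and 0.04 over all genes.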

How the data were processed

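The 24 liver libraries were made with a kit that keeps strand, per the labels' protocols. The deposited FPKM values were computed by the authors, with HISAT2, Cufflinks, Cuffdiff and mm10 per the submitters' processing notes; versions, annotation and strand setting are not given in the sources used here. Of 23746 loci per file, 14 marked as failed in some library were left out. Implied fragment numbers were computed from the files' confidence bounds, and cover counting error only. Groups and replicate numbers came from the sample titles.

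Values were tested as log2(FPKM + 1), which understates changes of low genes, with limma 3.58.1 in R 4.3.3 (trend, 1 coefficient per group, two-sided). Genes needed an FPKM of at least 1 in at least 3 fitted libraries, so the acute fit held 10452 genes, the constitutive fit 10375 and the joint fit of all groups 10682. Folds without log2 are ratios of mean FPKM. Alternatives were median-of-ratios scaling, a pseudocount of 0.1, no filter on low values, the replicate number as a block, the compared groups alone, the 8 shallower acute libraries, a depth term and each library left out; leaving out the deeper acute libraries or 2 low ones in the joint fit was added after seeing the data. The fit was tested on simulated data. Values are given per library for called genes, for some of them in part of the groups only, and for the 4 largest changes without overlap in each comparison. Other genes appear by range or were picked with their values known. The genes, lists and tests were chosen with earlier results of these data known. Promoter windows and shared 50-base stretches came from RefSeq and GENCODE tables (Python 3.11.15, pandas 2.3.3).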

Additional observations from a re-analysis of the deposited data

How the results depend on the processing

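No called change of the 38 genes turned its sign under the alternatives run; of 12788 recomputed values of changes that were not called, 452 did. The number of the 38 genes called by limma moved by over 1.5 times in these cases. Without the filter, and over the shallower acute libraries alone, it was 0 for Cre against GFP refed and for refeeding in GFP livers (1 as reported), and for refeeding in Cre livers (2 as reported) it was 1 and 0. With the compared groups alone it was 1 for Cre against GFP fasted (Cyp4a10; 0 as reported), 0 for Cre against GFP refed and 1 for refeeding in Cre livers. With median-of-ratios scaling it was 0 for refeeding in GFP livers, 1 (Plin2) in WT livers and 24 for the averaged refeeding effect (14 as reported), and Plin2 was also called in WT livers with a pseudocount of 0.1. A term for deeper libraries called Vnn1 (1) in the acute interaction. Without the deeper acute libraries, Pdk4 (1) was called in the fasted deletion difference and in the refeeding difference of deleted livers, and the averaged refeeding effect called 9. Over all genes the fasted deletion difference then called 3 higher and 1 lower, against 0. The refeeding difference of deleted livers called 104 higher and 20 lower, against 22 and 5, and averaged refeeding called 870 lower, against 1108. Leaving out Cre fasted 1 alone, the lowest Cre fasted library for Pdk4, gave the same Pdk4 calls. Pdk4 entered the joint fit through fasted libraries alone. With single libraries left out, the counts ranged from 0 to 1 for Cre against GFP fasted, 0 to 3 for Cre against GFP refed, 0 to 2 for refeeding in Cre and in GFP livers, 2 to 7 in KO livers, 0 to 1 in WT livers, for the acute interaction, for the deletion differences and for the refeeding difference of deleted livers, 10 to 15 for averaged refeeding and 6 to 8 for averaged deletion. Cyp4a10 and Cyp4a31 were called with Vnn1 in the acute refed comparison without GFP refed 1, and Cyp4a10 in the acute fasted one without Cre refed 1. Without GFP refed 1 the acute refed comparison called 42 higher and 24 lower over all genes, against 5 and 6 with all libraries. The 7 calls on refeeding in KO livers became 2 without KO fasted 1, KO fasted 2 or KO refed 2, 3 without KO fasted 3 or KO refed 1, and 4 without WT fasted 2 or WT refed 3. Over all genes that comparison called 44 lower without KO fasted 1, 60 without KO fasted 2 and 56 without KO refed 2. It called 194 lower without KO fasted 3 and 239 without KO refed 1, against 382 lower with all libraries. With the replicate number as a block, refeeding in Cre livers gave 1 call, in WT livers 1, the acute interaction 1 and the refed deletion difference 1; the correlation of deviations over 18 same-numbered pairs averaged -0.02 in the acute model (5 over 0.1) and 0.08 in the constitutive model (8 over 0.1), so not every pair was over 0.1. In the acute model 3 of 12 libraries correlated best with their own number and in the constitutive model 9 of 12, a hint from the data and not from the design. There the block moved the calls over all genes for refeeding in KO livers to 302 higher and 498 lower, against 207 and 382. Scaling by median-of-ratios moved the all-gene median by over 0.1 in 1 contrast, the refeeding difference of deleted livers (-0.13). Depth limits Pdk4 and Acot2 most.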
